A study of Ictidomys tridecemlineatus with 10 samples.

Results

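Complement genes of the thirteen-lined ground squirrel were examined in its subfornical organ, 9 in all: the C1q chain genes C1qa, C1qb and C1qc, the central component C3, the receptor genes C3ar1 and C5ar1, and the regulator genes Serping1, Cd55 and Cd59. They were taken by symbol from a table of 25964 genes, and all 9 were found in it. RNA was sequenced from 5 libraries of animals in interbout arousal (IBA) and 5 libraries of Active animals. IBA animals were in the hibernating state, in one of the periodic rewarmings between bouts of torpor, and Active animals were not hibernating. All animals were of the one species, and no other treatment or allele is named for either state. The labels give no sex or age. The organ, a small midline structure outside the blood-brain barrier that senses blood composition and drives thirst, was dissected by hand from slices, so neighbouring tissue may be included.

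Complement is a cascade of plasma and tissue proteins that tags microbes, dying cells and debris for removal. In the classical pathway C1q binds a target and activates the proteases C1r and C1s, which leads through C4 and C2 to the cleavage of C3. The alternative pathway, with factors B and D, amplifies that cleavage, and the terminal components can then form a membrane pore. In the mouse brain C1q comes mostly from microglia, and C1q and C3 are known for tagging synapses. C1 inhibitor, CD55 and CD59 restrain the cascade at its start, at C3 cleavage and at the pore, in that order.

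No complement gene of the 9 passed the test between the states in limma. Serping1, the gene of C1 inhibitor, came nearest, with a fitted level 1.71-fold higher in IBA (95% interval 1.24 to 2.37). C3, C3ar1, Cd55 and Cd59 also had higher means in IBA, and C1qa, C1qb, C1qc and C5ar1 had lower means in IBA. The test was limma on log2(CPM + 0.5), where CPM is the deposited count normalised to library size, with Benjamini-Hochberg adjustment over the 15445 genes that averaged 1 CPM or more. At an adjusted p under 0.05 it called 62 genes, or 0.401% of those tested, 34 higher and 28 lower in IBA. That split was 39 higher and 54 lower with median-of-ratios scaling, and 28 higher and 51 lower with every library set to the same total. Of the 9 genes, 7 were tested and 0 called by limma, with a median log2 difference of 0.13 beside 0.03 over all genes tested. C1qc and C3ar1 lay under the filter and were compared by a two-sided exact permutation test over all assignments of the libraries. At an unadjusted p under 0.05 limma found 1 of the 7, Serping1, beside 23.9% of all genes tested. With whole reads recovered from the CPM, edgeR's quasi-likelihood test called 0 of the 7, with 0.395% of all genes called. It found 1 of the 7 at an unadjusted p under 0.05, beside 24.1% of all genes. DESeq2 on the same reads called 1 of the 7, Serping1, with 9.89% of all genes called. In the authors' deposited table the FDR of the 9 genes lay between 0.266 and 0.767, and 12 genes of the whole table had an FDR under 0.05.

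**Figure D1:**
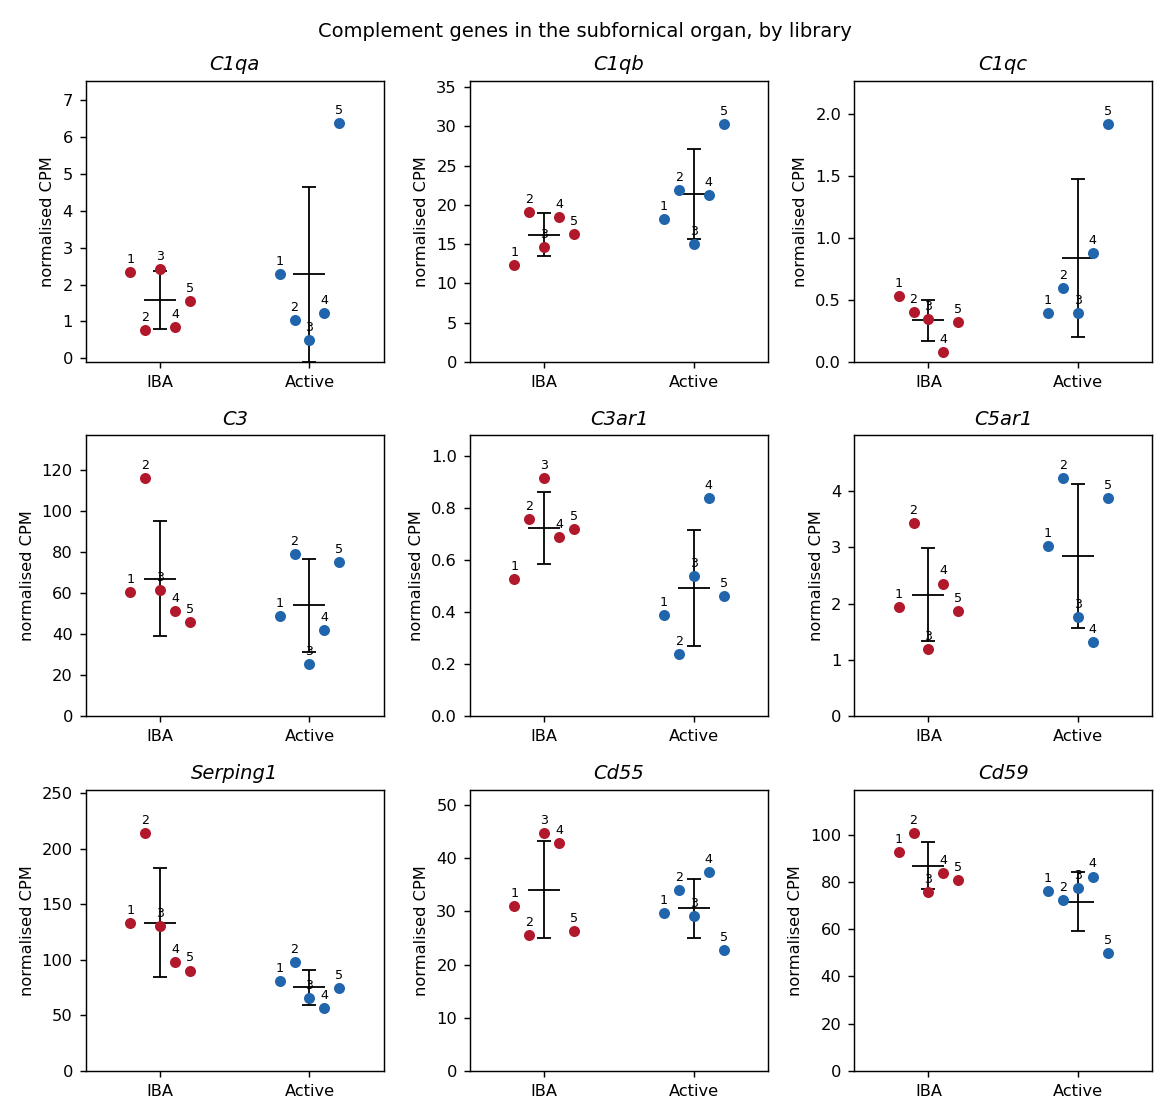
Normalised CPM (vertical axes, linear) of the 9 complement genes in each library; points are the 5 IBA and 5 Active libraries, numbered by replicate, and bars are the mean ± SD. In every panel the values of the states overlap, and Active replicate 5 holds the highest value of C1qa, C1qb and C1qc.

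Depth was 24195342 to 35382203 reads in IBA libraries and 20993093 to 30713168 in Active libraries, recovered from the CPM values. A gene with no read in a library could still be present at up to 3 reads, or 0.0882 to 0.132 CPM, by counting error alone. Genes with at least 1 read numbered 20019 to 22188 in IBA libraries and 20694 to 24363 in Active libraries. The organ's neuron genes were present, with Agtr1, the angiotensin receptor, at 50.4 ± 15.8 CPM in IBA and 44.0 ± 19.4 CPM in Active libraries (SD, n = 5 each). The summed markers of these neurons were lowest in Active replicate 5, at 112.4 CPM, against 168.4 to 218.3 CPM in IBA and 167.5 to 241.9 CPM in the other Active libraries. Summed choroid plexus markers, 9 of 10 listed, reached 13331 CPM in Active replicate 4, against 474 to 3025 CPM in IBA and 546 to 2108 CPM in the other Active libraries. Since this was bulk tissue, more cells of a type and more RNA per cell cannot be told apart. Transcript lengths were not used, so levels are compared between libraries for a gene and not between genes.

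C1q is built from the 3 chains that C1qa, C1qb and C1qc encode, and the 3 genes lie next to each other in the order C1qa, C1qc, C1qb between Epha8 and Ephb2 in the RefSeq list of the assembly mIctTri1.hap1. C1qb was the one with the most reads, 420 to 980 per library. Its level was 12.4, 19.2, 14.7, 18.5 and 16.3 CPM in IBA replicates 1 to 5, and 18.2, 21.97, 15.1, 21.3 and 30.3 CPM in Active replicates 1 to 5. The states overlapped, because Active replicates 1 and 3 lay within the IBA range, while Active replicate 5 stood highest and IBA replicate 1 lowest. The mean was 16.2 ± 2.77 CPM in IBA and 21.4 ± 5.71 CPM in Active libraries (SD, n = 5 each). The log2 difference was -0.37 (SE 0.18, 95% interval -0.77 to 0.03, adjusted p = 0.240 in limma). It kept its sign in all 22 alternative settings, from -0.48 to -0.18, with the smallest difference without Active replicates 4 and 5 together and -0.23 without Active replicate 5 alone.

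C1qa was low and uneven. It held 2.35, 0.759, 2.43, 0.853 and 1.54 CPM in IBA replicates 1 to 5, which were 80, 19, 77, 21 and 43 reads. In Active replicates 1 to 5 it held 2.28, 1.03, 0.502, 1.23 and 6.38 CPM, or 64, 26, 14, 28 and 206 reads. Active replicate 5 alone was above the IBA range, and Active replicate 3 alone was below it. The log2 difference was -0.16 (95% interval -1.15 to 0.83, adjusted p = 0.856 in limma), and it turned to 0.25 without Active replicate 5. It was -0.53 in edgeR and -0.56 in DESeq2 on the recovered reads (adjusted p = 0.618 and 0.599), and the authors' deposited table gave C1qa -0.52 with its sign turned. A difference of either sign lies within the limma interval. The annotation behind the counts is not given in the sources used here, and its part in the low counts of C1qa and C1qc was not tested.

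C1qc was under the filter, with 50 reads summed over the IBA libraries and 119 over the Active libraries. Its values were 0.529, 0.399, 0.347, 0.0812 and 0.323 CPM in IBA replicates 1 to 5, and 0.391, 0.597, 0.394, 0.881 and 1.92 CPM in Active replicates 1 to 5. IBA replicates 1 and 2 lay within the Active range, IBA replicate 4 was under the limit of 3 reads, and Active replicate 5 was highest, with 62 reads. The log2 difference was -0.59 (two-sided exact permutation p = 0.0635, n = 5 each, smallest possible p 0.00794). Without Active replicate 5 it was -0.35 (exact permutation p = 0.135), and with a pseudocount of 0.1 in place of 0.5 it was -0.99. The exact p was 0.0476 with every library set to the same total, and 0.0397 without Active replicate 1 or without Active replicate 3. The number of genes with at least 1 read also reached higher in Active libraries, and the part of this in the values of C1qc was not tested. The authors' deposited table gave C1qc a log2 fold change of -1.30 after its sign was turned to IBA over Active, with an FDR of 0.266.

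Serping1 encodes C1 inhibitor, the serine protease inhibitor that inactivates C1r and C1s and also restrains kallikrein in bradykinin formation. It held 133.2, 214.4, 130.3, 98.1 and 90.4 CPM in IBA replicates 1 to 5, and 80.9, 97.9, 65.7, 57.0 and 74.7 CPM in Active replicates 1 to 5. The ranges overlapped between 90.4 and 97.9 CPM, where IBA replicate 5 lay under Active replicate 2, and IBA replicate 2 was far above the others. The mean was 133.3 ± 49.2 CPM in IBA and 75.2 ± 15.6 CPM in Active libraries (SD, n = 5 each). The log2 difference was 0.78 (SE 0.22, unadjusted p = 0.00358, adjusted p = 0.0819 in limma), higher than the Active mean in 5 of 5 IBA libraries. Over 22 alternative settings it ranged from 0.59 to 0.90, and the adjusted p from 0.0114, in DESeq2, to 0.296, without Active replicates 4 and 5. Without IBA replicate 2 the difference was 0.59 (adjusted p = 0.166 in limma). The authors' deposited table gave Serping1 a log2 fold change of 0.83 with its sign turned and an FDR of 0.322.

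C3, on which all pathways converge, held 60.7, 115.7, 61.4, 51.3 and 45.9 CPM in IBA replicates 1 to 5. In Active replicates 1 to 5 it held 48.8, 79.0, 25.6, 42.0 and 75.1 CPM. The states overlapped widely: IBA replicate 2 was highest, as for Serping1, and Active replicate 3 was lowest, while the other 4 IBA libraries lay within the Active range. The log2 difference was 0.34 (SE 0.31, 95% interval -0.33 to 1.01, adjusted p = 0.531 in limma), 0.12 without IBA replicate 2 and 0.0997 without Active replicate 3. As a fold, the interval runs from 0.793 to 2.01.

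The receptor genes showed no separation of the states. C5ar1, the receptor of the anaphylatoxin cut from C5, held 1.94, 3.43, 1.20, 2.35 and 1.87 CPM in IBA replicates 1 to 5, and 3.02, 4.22, 1.76, 1.32 and 3.87 CPM in Active replicates 1 to 5. Active replicates 2 and 5 were above all IBA libraries, and Active replicate 4 was nearly as low as the lowest IBA library, replicate 3. Its log2 difference was -0.29 (95% interval -0.94 to 0.36, adjusted p = 0.585 in limma). It was -0.14 without IBA replicate 3 or without Active replicate 2, -0.17 without Active replicate 5, -0.44 without IBA replicate 2 and -0.48 without Active replicate 4. C3ar1, the receptor of the fragment cut from C3, had few reads, 103 summed over IBA libraries and 66 over Active libraries. It held 0.529, 0.759, 0.914, 0.690 and 0.719 CPM in IBA replicates 1 to 5, and 0.391, 0.239, 0.538, 0.837 and 0.464 CPM in Active replicates 1 to 5. Only Active replicates 3 and 4 reached the IBA range, and Active replicate 4 lay near its top. The log2 difference of C3ar1 was 0.32 (two-sided exact permutation p = 0.0873, n = 5 each), and without Active replicate 4 it was 0.43 (exact permutation p = 0.0238). Neutrophils also carry C5ar1 in other mammals. The summed neutrophil and monocyte markers, 5 of 9 listed, were 4.997 to 15.98 CPM in IBA and 8.96 to 19.5 CPM in Active libraries. Ltf made up most of the highest sums, with 12.4 CPM in IBA replicate 3 and 14.6 CPM in Active replicate 5. S100a8 and S100a9 had higher means in IBA (0.722 and 1.67 CPM, against 0.541 and 0.940 CPM in Active libraries). Ltf, Csf3r and Mpo had lower means in IBA. The part of these markers in the C5ar1 values was not tested.

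Cd55 and Cd59 encode proteins anchored to cell membranes that protect the cell itself, Cd55 by dispersing the enzymes that cut C3 and Cd59 by blocking assembly of the pore. Cd59 held 92.6, 100.8, 75.9, 83.9 and 81.0 CPM in IBA replicates 1 to 5, and 76.2, 72.2, 77.3, 82.3 and 50.01 CPM in Active replicates 1 to 5. The IBA libraries reached higher, but IBA replicates 3 and 5 lay within the Active range, and Active replicate 5 was the lowest of all. The log2 difference was 0.29 (SE 0.14, 95% interval -0.01 to 0.59, adjusted p = 0.220 in limma), and 0.17 without Active replicate 5. Cd55 held 31.0, 25.6, 44.8, 42.8 and 26.3 CPM in IBA replicates 1 to 5, and 29.7, 34.1, 29.2, 37.4 and 22.7 CPM in Active replicates 1 to 5. IBA replicates 3 and 4 were above the rest, and the other IBA libraries lay within the Active range. The log2 difference of Cd55 was 0.13 (95% interval -0.27 to 0.54, adjusted p = 0.694 in limma). Single libraries moved it from 0.0275 without IBA replicate 3 to 0.23 without IBA replicate 2, with 0.033 without Active replicate 5 and 0.044 without IBA replicate 4. In the RefSeq list the coding genes on both sides of Cd55 carry no symbol, and reads shared with a near copy could not be checked.

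**Figure D2:**
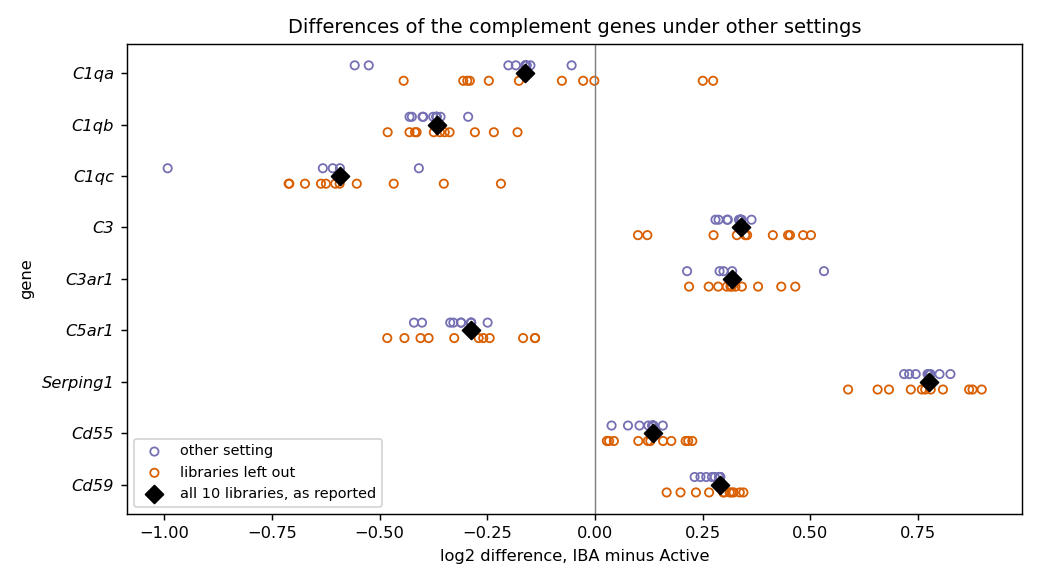
Log2 difference between the states (horizontal axis, IBA minus Active) of each of the 9 complement genes; diamonds are the values with all 10 libraries, orange circles leave out libraries and purple circles change another setting. Only C1qa crosses 0, at 0.25 when Active replicate 5 is left out and 0.27 when Active replicate 4 is left out too, and Serping1 stays between 0.59 and 0.90.

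Most microglia markers had higher means in IBA, where the C1qb mean was lower. Of 15 microglia markers listed, 13 were in the table and 11 tested, with 2 called higher and 0 lower by limma, beside 0.401% of all genes called. Of the 11, 9 had a higher mean and 2 a lower mean in IBA, and 5 had an unadjusted p under 0.05, all higher, beside 12.7% of all genes higher. Trem2, a lipid-sensing receptor, and Sall1, a transcription factor of microglia, were the 2 with lower means in IBA (log2 differences -0.32 and -0.35, adjusted p = 0.369 and 0.533 in limma). The list's median log2 difference was 0.40, beside 0.03 over all genes tested. Their summed level was 326 to 378 CPM in IBA and 230 to 299 CPM in Active libraries, without overlap, and 3.59% of all single genes were higher in IBA without overlap. P2ry12, an ADP receptor of resting microglia, was at 38.98 ± 8.46 CPM in IBA and 20.45 ± 1.85 CPM in Active libraries (SD, n = 5 each), with an adjusted p of 0.0347 in limma. That call was lost in limma without IBA replicate 1, 2 or 4 or Active replicate 1, 2 or 5, with adjusted p from 0.0508 to 0.0903, and also without Active replicates 4 and 5 together (0.0991) and with no filter on low values (0.0589). Cx3cr1, the fractalkine receptor, was at 16.6 ± 4.03 CPM in IBA and 10.8 ± 2.33 CPM in Active libraries, a log2 difference of 0.60 (adjusted p = 0.102 in limma). Aif1, a calcium-binding protein of microglia, differed by 0.57 (adjusted p = 0.113) and Csf1r, the receptor that keeps microglia alive, by 0.27 (adjusted p = 0.337). Tmem119 was near the limit of detection, at 0.0399 to 0.353 CPM in IBA and 0.119 to 0.495 CPM in Active libraries. The part of microglial number in the C1q values was not tested.

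Set within each library against Cx3cr1, P2ry12, Csf1r or Aif1, C1qb had a lower mean ratio in IBA. Each of these markers itself had a higher mean in IBA. Trem2 and Sall1, whose means were lower in IBA, were not used as divisors, so the result holds only for the markers picked. C1qb per Cx3cr1 was 0.981, 0.986, 0.668, 1.16 and 1.23 in IBA replicates 1 to 5, and 1.70, 1.76, 1.84, 2.40 and 2.22 in Active replicates 1 to 5. Every IBA library was under every Active library, and a ratio within a library does not depend on how libraries are scaled. The ratio averaged 1.01 ± 0.219 in IBA and 1.99 ± 0.309 in Active libraries (SD, n = 5 each), a log2 difference of -0.999. C1qb per P2ry12 (0.367 to 0.493 in IBA and 0.747 to 1.63 in Active libraries) and per Aif1 (0.578 to 1.04 in IBA and 1.16 to 2.25 in Active libraries) also had no overlap, and per Csf1r the ranges met (0.135 to 0.230 in IBA and 0.220 to 0.418 in Active libraries). C1qa overlapped against each of these markers, and C1qc, with its few reads, overlapped against Cx3cr1 and Csf1r but not against P2ry12 or Aif1. Such separation was common among all genes tested, since 18.7% were lower in IBA without overlap when set against Cx3cr1, 55.9% against P2ry12, 13.7% against Aif1 and 5.59% against Csf1r. These ratios were chosen after the values were seen and are given without a test.

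**Figure D3:**
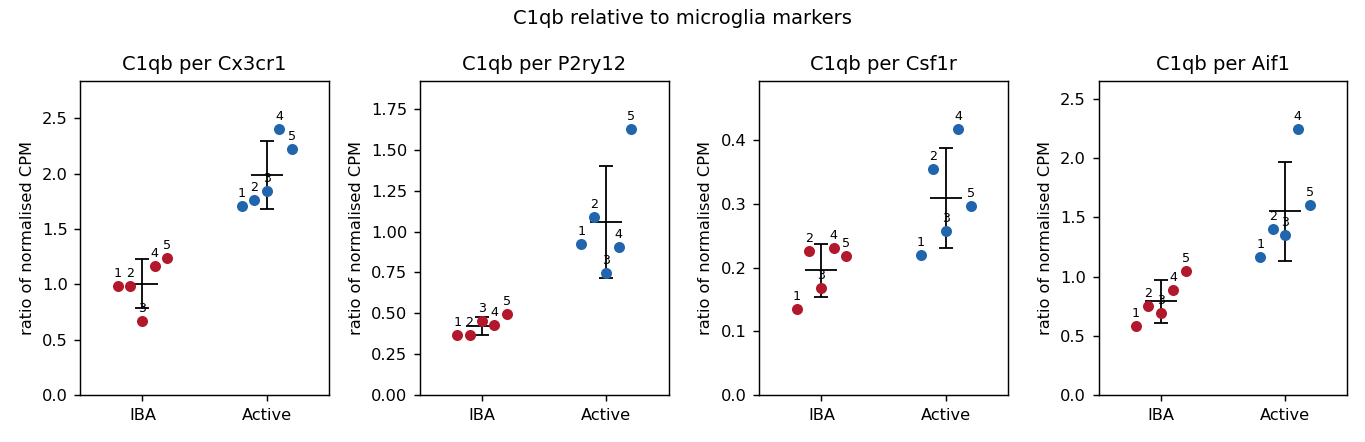
Ratio of normalised CPM of C1qb to 4 microglia markers (vertical axes, linear from 0) in each IBA and Active library, numbered by replicate. Bars are the mean ± SD, and all 4 markers had higher means in IBA. The states do not overlap for Cx3cr1, P2ry12 and Aif1, and they meet for Csf1r between 0.220 and 0.230.

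Markers of macrophages along vessels and meninges, which also make C1q in mice, had lower sums in IBA. Of 8 listed, 4 were in the table and tested, with 0 called higher and 1 called lower by limma, beside 0.401% of all genes called. Their summed level was 27.0 to 32.0 CPM in IBA and 42.4 to 77.0 CPM in Active libraries, without overlap, and 2.8% of all single genes were lower in IBA without overlap. Lyve1, a hyaluronan receptor, was at 3.85 ± 1.34 CPM in IBA and 9.73 ± 1.01 CPM in Active libraries (SD, n = 5 each), an adjusted p of 0.0347 in limma. The Lyve1 call was lost without IBA replicate 1, 2 or 3 or Active replicate 1, 2 or 5, with adjusted p from 0.0508 to 0.0903 in limma, and also without Active replicates 4 and 5 together (0.101) and with no filter on low values (0.0638). Mrc1, the mannose receptor, was at 6.09 ± 1.71 CPM in IBA and 9.04 ± 2.11 CPM in Active libraries, an adjusted p of 0.147. Active replicate 5, which held the most C1q of each chain, had 63.5 CPM of these markers. The part of these cells in the C1q values was not tested.

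**Figure D4:**
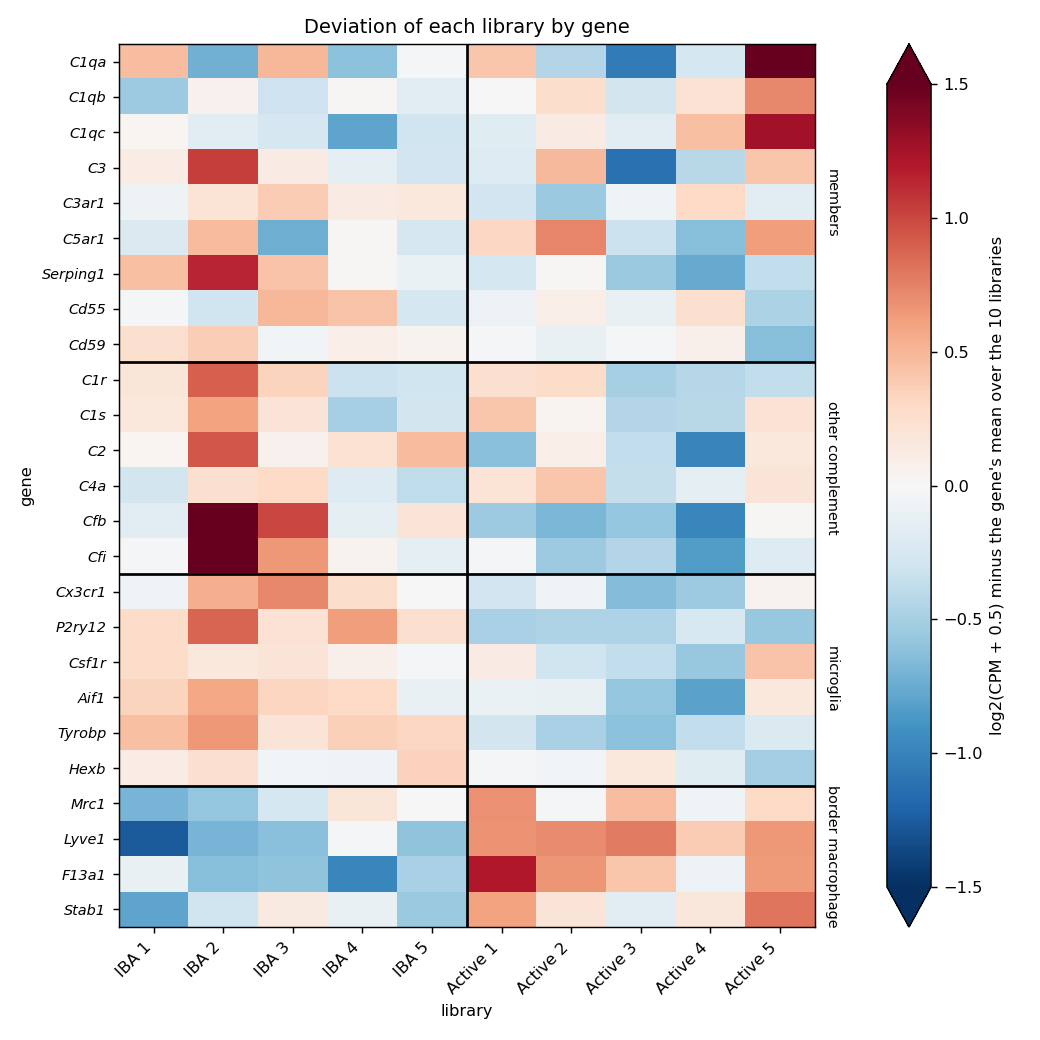
Log2(CPM + 0.5) of each library (columns, 5 IBA and 5 Active) less the mean of that gene over all 10 (colour, limited to 1.5 either way) for the 9 complement genes, 6 other complement genes and 10 macrophage markers (rows). The 3 C1q genes are highest in Active replicate 5, and Serping1, C3, C1r, C1s, C2, Cfb and Cfi are highest in IBA replicate 2. The 6 other complement genes are a selection: IBA replicate 2 was highest for 9 of all 31 tested, or 29%.

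Of 52 other complement genes listed, 42 were in the table and 31 were tested. limma called 0 of them, beside 0.401% of all genes. At an unadjusted p under 0.05 limma found 5 higher and 7 lower in IBA, 12 of 31, beside 12.7% of all genes tested higher and 11.1% lower. Their median log2 difference was 0.07, beside 0.03 over all genes. edgeR called 0 of the 31, with 13 at an unadjusted p under 0.05, beside 24.1% of all genes. DESeq2 called 4 of the 31 (C5ar2, C8g, Cfb, Colec12), beside 9.89% of all genes called. The genes named here beyond the 2 with the highest mean in each group were chosen after their values were seen.

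In the classical pathway, C1s, a protease of the C1 complex, was at 364 ± 109.5 CPM in IBA and 343 ± 89.3 CPM in Active libraries. C4a, a C4 gene, was at 351 ± 76.6 CPM in IBA and 383 ± 78.8 CPM in Active libraries, and both differed by less than the spread. C2, the protease subunit of the enzyme that cuts C3, was at 23.9 ± 6.83 CPM in IBA and 14.8 ± 4.95 CPM in Active libraries, a log2 difference of 0.69 (adjusted p = 0.117 in limma). In the alternative pathway, Cfb, which encodes factor B, held 34.5, 145.7, 78.2, 35.0 and 44.4 CPM in IBA replicates 1 to 5, and 26.4, 23.9, 25.9, 19.5 and 39.3 CPM in Active replicates 1 to 5. The highest values were IBA replicates 2 and 3, and Active replicate 5 lay above IBA replicates 1 and 4. The log2 difference of Cfb was 1.11 (95% interval 0.34 to 1.87, adjusted p = 0.103 in limma), and 0.77 without IBA replicate 2. Cfd, factor D, differed by 0.82 (adjusted p = 0.310). Cfp, which encodes properdin and stabilises the alternative pathway's enzyme, was at 1.62 ± 0.549 CPM in IBA and 2.72 ± 0.172 CPM in Active libraries without overlap, a log2 difference of -0.65 (adjusted p = 0.0959 in limma). Among all genes tested 2.8% were lower in IBA without overlap.

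Lectin, terminal and receptor genes gave values on both sides. Masp1, a lectin pathway protease, differed by a log2 value of 0.25 (adjusted p = 0.372), and Colec12, a membrane collectin, by -1.10 (adjusted p = 0.0958 in limma). C6 and C7, components of the pore, differed by -0.15 and 0.23, and C8g by -0.87 (adjusted p = 0.0894). C7 was at 167.9 CPM in IBA replicate 1 and 531 to 761 CPM in the other IBA libraries, against 328 to 592 CPM in Active libraries. Its difference was 0.63 without IBA replicate 1 (adjusted p = 0.165 in limma) and 0.08 without IBA replicate 4. C5ar2, the second receptor of the C5 fragment and the neighbour of C5ar1 in the RefSeq list, was at 1.11 ± 0.657 CPM in IBA and 2.46 ± 0.480 CPM in Active libraries. Its log2 difference was -0.95 (unadjusted p = 0.00217, adjusted p = 0.0746), the lowest adjusted p among these genes, and without IBA replicate 5 it passed the threshold with an adjusted p of 0.0347 in limma. Itgam, a chain of the receptor that binds C3 fragments on myeloid cells, was at 6.18 ± 1.08 CPM in IBA and 4.600 ± 0.499 CPM in Active libraries without overlap, a log2 difference of 0.38 (adjusted p = 0.158). Among all genes tested 3.59% were higher in IBA without overlap. Cd93 and Cr1 differed by -0.16 and -0.85 (adjusted p = 0.800 and 0.204).

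Regulators other than the members were also mixed. Clu, clusterin, which binds the pore complex in fluid, was at 2575 ± 201 CPM in IBA and 2134 ± 385 CPM in Active libraries, a log2 difference of 0.29 (adjusted p = 0.256 in limma). Cd46, a cofactor for the breakdown of C3 fragments, was at 73.7 ± 5.996 CPM in IBA and 62.0 ± 12.1 CPM in Active libraries (adjusted p = 0.239). Cfi, the protease factor I, differed by 0.82 and Csmd3 by 0.37 (adjusted p = 0.134 and 0.121). Vtn, vitronectin, and C1qbp differed by -0.79 and -0.43 (adjusted p = 0.191 and 0.135). Of 11 listed genes under the filter, 3 had an exact permutation p under 0.05 among 13 such tests: C8a, C9 and Cpn2 (exact p = 0.00794, 0.0476 and 0.0476, n = 5 each). Their reads summed to 3, 0 and 0 over the IBA libraries and 28, 10 and 13 over the Active libraries. Most of these reads came from 1 or 2 libraries: C8a had 13 in Active replicate 3 and 8 in Active replicate 4, C9 had 7 in Active replicate 3, and Cpn2 had 8 in Active replicate 5. Active replicate 3 also had the most genes with a read, 24363, and the part of this was not tested. How many of all genes under the filter had an exact permutation p under 0.05 was not counted. The 3 of 11 therefore cannot be set against a background.

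**Figure D5:**
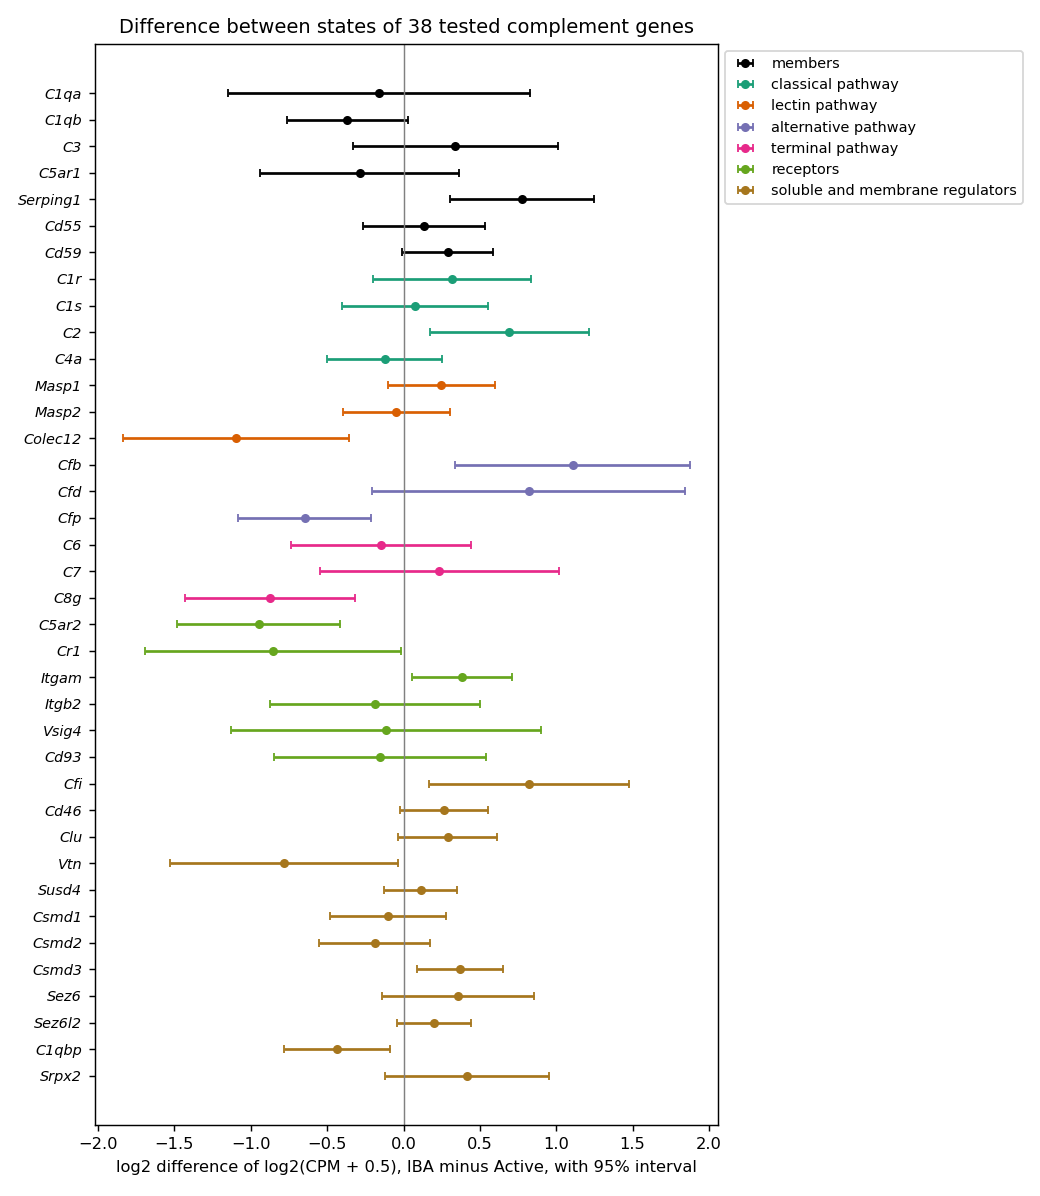
Log2 difference between the states (horizontal axis, IBA minus Active) with its 95% interval from limma for the 7 tested complement members and 31 other tested complement genes (rows, coloured by pathway group). Serping1, C2, Cfb, Itgam, Cfi and Csmd3 have intervals above 0, and 7 other genes have intervals below 0. Of all genes tested, 12.7% were higher and 11.1% lower in IBA at an unadjusted p under 0.05 in limma. No gene shown passes after adjustment over all genes.

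The highest library differed from member to member. IBA replicate 2 was the highest library for 3 members (C3, Serping1 and Cd59) and for 9 of the 31 other complement genes tested, or 29% of them, beside 12.8% of all genes tested. Active replicate 5 was the highest for C1qa, C1qb and C1qc and for 5 of the 31, or 16.1%, beside 18% of all genes, a share under the background. IBA replicate 3 was the highest for C3ar1 and Cd55, and Active replicate 2 for C5ar1. Active replicate 5 was also the lowest library for Cd55 and Cd59, beside 19.5% of all genes for which it was lowest. Libraries were singled out after their values were seen, and no cause was tested.

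Genes whose level followed the members within states were sought among 10921 named genes averaging 5 CPM or more, by Pearson's r on log2(CPM + 0.5) over the 10 libraries after each state's mean was removed. For the mean of the C1q genes the closest were Nacc1, Sephs2, Mob3c, Myh9 and Naa60, with r of 0.981, 0.980, 0.977, 0.973 and 0.967. Active replicate 5 was highest for all 5, and without it r was 0.912, 0.906, 0.900, 0.874 and 0.889. For C3 the closest were P2rx4, Ybx1, Tbl3, Vps51 and Trpc4ap, with r of 0.903 to 0.953. For Serping1, added after its values were seen, the closest were Znrf1, C1r, Mapk3, Wsb2 and Nudcd2. Their r values were 0.975, 0.936, 0.923, 0.923 and 0.918, and C1r encodes a protease that C1 inhibitor blocks. C1r held 216.5, 354.2, 240.8, 152.6 and 154.9 CPM in IBA replicates 1 to 5, and 224.6, 231.8, 134.8, 141.1 and 147.0 CPM in Active replicates 1 to 5. It thus shared with Serping1 the high value in IBA replicate 2, without which r was 0.891. Without that library r was 0.96 for Znrf1, 0.83 for Mapk3, 0.84 for Wsb2 and 0.98 for Nudcd2. The log2 difference of C1r was 0.32 (adjusted p = 0.438 in limma), and 0.13 without that library. All r values are given as a description, over libraries that share each gene's scaling.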

How the data were processed

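mRNA libraries (Kapa mRNA kit) of 10 subfornical organ samples, 5 IBA and 5 Active, were sequenced and grouped by sample title. The submitters' processing notes name R 4.2.1 and edgeR 3.38.4, featureCounts (Subread 2.0.1), STAR 2.7.7a and Trimmomatic 0.39. Genome build, annotation and strandedness are not given in the sources used here, and overlapping or near-identical genes may share reads. The authors deposited, per the file headers, a normalised CPM signal, state means, log2 fold changes (coded Active minus IBA), average log2 CPM, an F score, p-values and FDR. In every library 100% of values were whole multiples of 1 read within 0.01 of a read.

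The two-sided test was limma 3.58.1 (R 4.3.3) with an intensity trend, on log2(CPM + 0.5) of the 15445 genes that averaged 1 CPM or more. Fold changes on this scale understate changes of low genes. edgeR 4.0.16 and DESeq2 1.42.0 used the recovered reads. Other alternatives changed pseudocount, filter, scaling, variance model, weights and pairing, or left out libraries; leaving out Active replicates 4 and 5 together was added after seeing the data. Libraries are called biological replicates in the design text, and within each state every pair of libraries differed by more than sampling noise. Equal replicate numbers were not taken as pairs, since not every same-numbered pair deviated together. The members and lists were chosen with earlier results of these data known. Named were the members, the 2 other complement genes with the highest mean in each group, and 7 macrophage markers; others are said to be named after their values were seen. RefSeq names (mIctTri1.hap1) matched 8 of 9 members, C3 apart. Build differences were not checked, so no coordinates are given. Listed symbols without a match in the table were not used here.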

Additional observations from a re-analysis of the deposited data

Results flagged for a closer look

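In 76 groups of 5 libraries, 4 single libraries stood apart from the others of their state by a gap large beside the whole range. The groups were 38 of the complement and macrophage marker genes named above, in each state. Some of these genes were chosen after their values were seen, and other tested complement genes were not examined in this way. Chance alone gives about 1 such group in 20, a share close to 4 in 76. C3 was at 115.7 CPM in IBA replicate 2, while the other IBA libraries held 45.9 to 61.4 CPM. Cd93 was at 18.35 CPM in IBA replicate 3, and Colec12 was at 55.61 CPM in Active replicate 5. Tmem119 was at 0.4952 CPM in Active replicate 5, a value of few reads.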

How the results depend on the processing

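With all 10 libraries limma called 62 genes and 0 complement members. The count of all genes was 6 with no filter on low values, 121 with sample weights, 1527 with DESeq2, 231 with the replicate block and 0 without Active replicates 4 and 5 (2173 at an unadjusted p under 0.05), and 4 to 245 when single libraries were left out. The count of members was 1 with DESeq2 and 1 with the replicate block, Serping1 in both (adjusted p = 0.0114 and 0.0432), and 0 in each omission of a single library. Equal replicate numbers gave mixed evidence of pairing and were not taken as pairs: libraries with the same number deviated together by r = 0.119, 0.104, -0.169, -0.0089 and 0.196 for replicates 1 to 5, and 2 of 5 correlated best with their own number. C1qa reversed to 0.25 when Active replicate 5 was left out, the top of a range from -0.44, and to 0.27 when Active replicate 4 was left out too. C1s reversed to -0.070 without IBA replicate 2, -0.028 without Active replicate 3 and -0.023 without Active replicate 4, with 0.21 at the top of the range. C6 reversed to 0.0825 without IBA replicate 1 (lowest -0.33), and Cd93 to 0.018 without IBA replicate 1 (lowest -0.45) and 0.067 without Active replicates 4 and 5. The causes were not tested. The other 8 members kept their direction in every alternative run. For C1qc and C3ar1, models across genes were run with no filter only. Few reads limit C1qa, C1qc and C3ar1.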
